A study of Mus musculus with 4 samples.

Results

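The genes described here encode enzymes that build the sugar chains of glycoproteins and glycolipids: the sialyltransferases and the galactosyl-, N-acetylgalactosaminyl-, N-acetylglucosaminyl- and fucosyltransferases that work beside them in the Golgi. Members were taken by name, as every gene symbol of the deposited expression table that begins with St3gal, St6gal, St8sia, B3gal, B3gnt, B4gal, Galnt, Fut, Gcnt or Mgat and carries a number, which gave 80 of 20193 genes. The study asked how the long noncoding RNA Myolinc acts in muscle cells, and this series measured cells made to overexpress it. The tested cells were C2C12, an established mouse myoblast line, transfected with Myolinc in the plasmid pcDNA3.1/Zeo(+) and kept as a polyclonal line (2 arrays). The control cells were C2C12 transfected with the empty pcDNA3.1/Zeo(+) plasmid (2 arrays). All cells were grown in medium with 20% serum and selected with Zeocin, and nothing in the labels says that they were driven to differentiate. The labels name 1 selected population for each plasmid, and effects of the line and of the plasmid cannot be told apart. Total RNA was labelled and hybridised to Affymetrix arrays, and all levels below are the authors' log2 RMA values, a normalized brightness per gene. Array medians were 7.26 and 7.35 in the Myolinc line and 7.24 and 7.29 in empty vector cells. The deposited table has 0 rows under the name Myolinc, and the amount of Myolinc was not analysed here.

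Glycans are made without a template. Each enzyme adds a single sugar from a nucleotide-activated donor, and the enzymes a cell expresses largely set which chains it carries. Sialic acid is usually the last sugar added and gives the chain a negative charge. Gangliosides are sialic acid-bearing glycolipids of the plasma membrane, N-glycans and mucin-type O-glycans sit on proteins, and polysialic acid is a long chain found mainly on the neural cell adhesion molecule. In muscle, the glycans of dystroglycan bind the cell to laminin in the basement membrane, and surface sialic acid and galactose groups are read by siglecs and galectins.

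The gene family was picked with the values of this contrast in view, the rise of St6galnac5 first among them. Fold changes and calls of its members are therefore a description and support nothing further. A gene is said to have risen or fallen in the Myolinc line where limma's adjusted p was under 0.05 over all 20193 genes. Of the 80 members 7 rose, beside 4.61% of all genes, and 2 fell, beside 4.65% of all genes. With a further quantile normalization the split was 9 and 1. The share of all genes called is not given here for this or any other alternative setting. Counts under the alternatives therefore cannot be set beside it. The median log2 difference, Myolinc line minus empty vector, was 0.03 over the members and 0.02 over all genes, and the median size of the difference was 0.12 in both. A difference of at least 0.5 on the log2 scale in either direction was reached by 9 members, beside 6.1% of all genes. Both arrays of a group lay above both of the other for 46 of the 80 members, beside 53.9% of all genes. Most of the family thus lay close to 0, with a few genes far from it. In bulk RNA, fewer expressing cells and less RNA per cell cannot be told apart. Leaving out either empty vector array ended every call in limma, in fits with 1 array left in that group. The calls of St6galnac6, St8sia2, B3gnt1 and B3galt1 are the least firm and ended in 9 of 17, 8 of 16, 10 of 17 and 12 of 16 alternatives. Without Myolinc replicate 1 the counts were 4 that rose and 1 that fell, and without Myolinc replicate 2 they were 5 and 1.

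**Figure D1:**
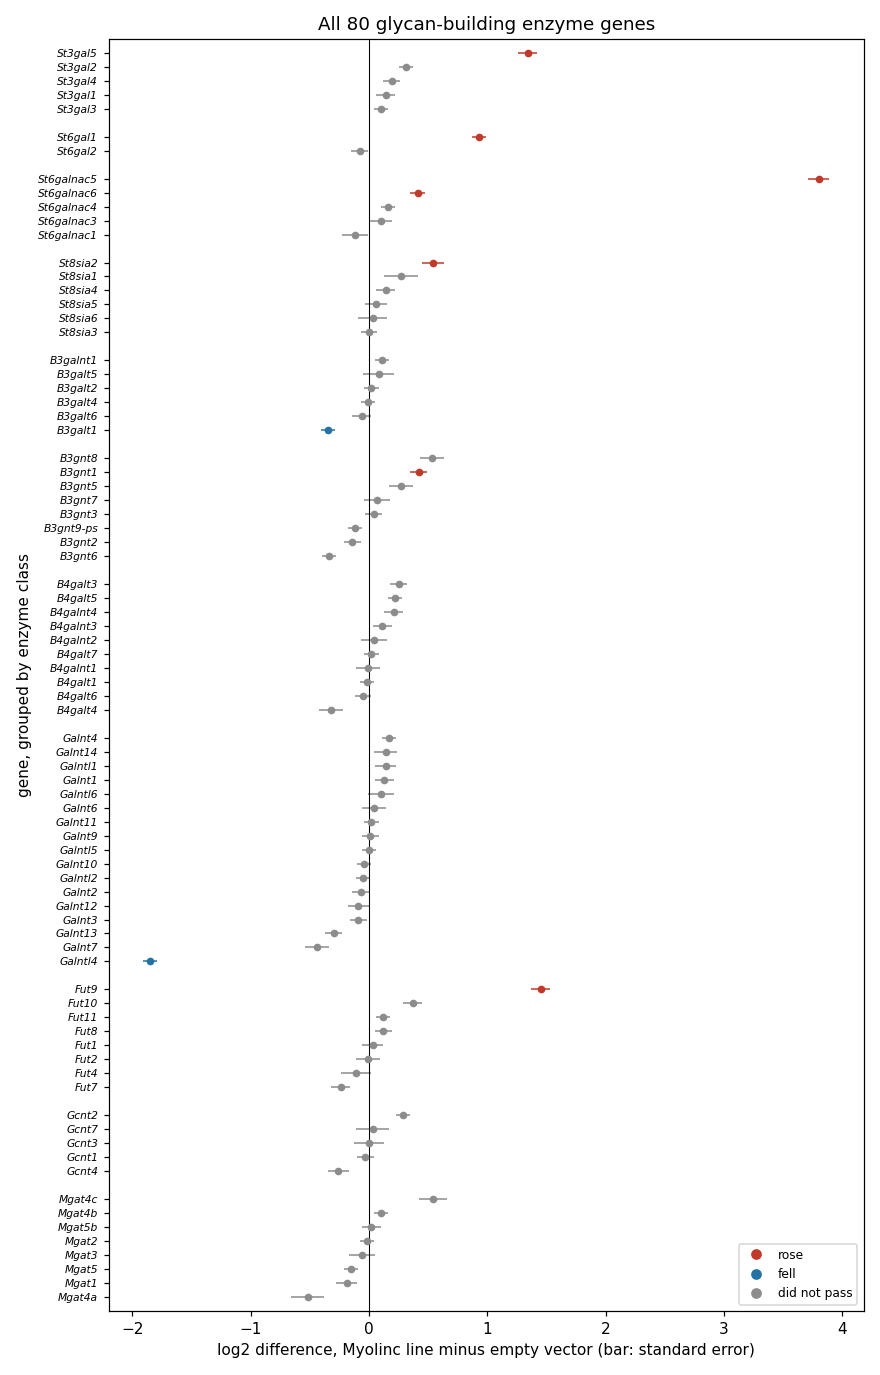
Log2 difference of each of the 80 genes, Myolinc line minus empty vector, with its moderated standard error as a bar and the genes grouped by enzyme class. St6galnac5 (3.80) and Galntl4 (-1.85) stand farthest out, and all 5 St3gal genes and all 6 St8sia genes lie at or above 0.

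The promoters of the called genes were looked at for what they share. RefSeq (GRCm38.p6) sequences were found for 5 of the 9 called members, St3gal5, St6gal1, St6galnac6, St8sia2 and B3galt1. St6galnac5, Fut9, Galntl4 and B3gnt1 were not in that table. The 250 bases before the start site of 4 genes that rose are shown because these genes moved in the same direction. Capitals mark a GC box, the letters GGGCGG on either strand, and the E-box CAGCTG that MyoD prefers was searched on both strands as well. For St6gal1 the most upstream of its 3 listed starts is shown.
St3gal5, chr6:72097358-72097607, plus strand: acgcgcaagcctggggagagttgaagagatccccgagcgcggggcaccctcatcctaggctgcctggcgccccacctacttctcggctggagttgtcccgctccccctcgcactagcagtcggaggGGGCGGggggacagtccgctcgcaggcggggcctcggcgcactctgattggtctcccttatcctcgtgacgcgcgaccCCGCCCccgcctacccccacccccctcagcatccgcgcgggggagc
St8sia2, chr7:74013683-74013932, minus strand: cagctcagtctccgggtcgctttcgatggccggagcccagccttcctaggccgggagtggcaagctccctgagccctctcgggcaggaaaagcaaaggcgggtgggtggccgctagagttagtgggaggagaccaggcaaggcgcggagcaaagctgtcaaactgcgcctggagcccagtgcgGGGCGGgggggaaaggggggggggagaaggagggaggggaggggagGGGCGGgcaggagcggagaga
St6galnac6, chr2:32599459-32599708, plus strand: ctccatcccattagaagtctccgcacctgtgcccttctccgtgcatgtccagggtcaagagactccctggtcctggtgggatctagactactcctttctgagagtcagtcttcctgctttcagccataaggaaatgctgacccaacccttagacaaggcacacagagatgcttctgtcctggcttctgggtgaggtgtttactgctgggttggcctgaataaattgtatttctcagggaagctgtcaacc
St6gal1, chr16:23224490-23224739, plus strand: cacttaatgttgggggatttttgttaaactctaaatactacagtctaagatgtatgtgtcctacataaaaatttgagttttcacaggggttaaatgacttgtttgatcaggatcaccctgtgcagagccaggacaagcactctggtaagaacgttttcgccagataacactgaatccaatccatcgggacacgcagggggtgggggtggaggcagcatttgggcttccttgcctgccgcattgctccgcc
St3gal5 and St8sia2 each held 2 GC boxes in windows of 71.6% and 68.8% G and C. St6galnac6 and St6gal1 held 0 in windows of 51.6% and 47.2%, near the median of 52.4% over all 32851 RefSeq promoter windows of this length. A GC box was present in 32.7% of those windows and CAGCTG in 13% of them. CAGCTG was in none of the 4 windows shown and in 1 of the 2 windows listed for B3galt1, and TATAAA, found in 12.4% of all windows, was in none of them either. The marked letters do not overlap any CAGCTG or TATAAA match, and a match in letters describes the sequence alone.

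Sialyltransferases made up 18 of the 80 members. Of these, 5 rose, beside 4.61% of all genes, 0 fell, beside 4.65%, and 13 did not pass. The log2 difference was above 0 for 16 of the 18, beside 54.8% of all genes, and for 12 of them both Myolinc arrays read above both empty vector arrays, beside 27.9% of all genes. Nothing is read from these counts. Of the 62 other members 2 rose and 2 fell, with 32 above 0 and 30 below.

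St6galnac5 adds sialic acid to the N-acetylgalactosamine of gangliosides and in the mouse is known mainly from brain. It read 10.02 and 10.12 in the Myolinc line, against 6.36 and 6.19 in empty vector cells. Both Myolinc arrays were far above 7.27, the median level over probe sets, and both empty vector arrays under it. It rose by 3.80 on the log2 scale (SE 0.09). The files hold no detection call, and the empty vector level lay among those of 8 endothelial markers, whose means there ran from 4.52 to 7.13. Whether it stood above background was not tested, and no fold is given for that reason. Its relative St6galnac3, which uses the same kind of acceptor and is the next measured gene in the RefSeq order of the chromosome, read 5.22 and 5.42 in the Myolinc line and 5.23 and 5.22 in empty vector cells. Those groups overlapped, and all 4 values lay below the median. St6galnac6, which acts on gangliosides too, read 10.20 and 10.19 in the Myolinc line, against 9.80 and 9.76 in empty vector cells. It rose by 0.41 (SE 0.06) with no overlap. Its measured neighbour St6galnac4 averaged 10.43 ± 0.03 in the Myolinc line and 10.27 ± 0.05 in empty vector cells (SD, n = 2 each) and did not pass. St6galnac1, which sialylates the first sugar of mucin-type chains, had a log2 difference of -0.12 (SE 0.11) and did not pass either.

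St3gal5 is GM3 synthase, the enzyme that makes the first ganglioside of most pathways by adding sialic acid to lactosylceramide. It read 9.46 and 9.48 in the Myolinc line, against 8.05 and 8.21 in empty vector cells. The groups did not overlap, and it rose by 1.34 on the log2 scale (SE 0.08), 2.53-fold higher in the Myolinc line. The other 4 measured St3gal genes had log2 differences from 0.10 to 0.31 and did not pass. The largest of these was St3gal2, which extends GM1 and related gangliosides, at 10.20 and 10.17 in the Myolinc line and 9.88 and 9.86 in empty vector cells. It stood just outside the threshold, and it passed with a further quantile normalization (log2 difference 0.34), while St3gal1, St3gal3 and St3gal4 act on O-glycans, N-glycans or both.

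St6gal1 caps the galactose ends of N-glycans with sialic acid and makes the ligand of the B cell lectin CD22. It read 9.31 and 9.27 in the Myolinc line, against 8.38 and 8.33 in empty vector cells. The values within each group were close and the groups well apart, and it rose by 0.93 (SE 0.06), 1.91-fold higher in the Myolinc line. The gene lies on chromosome 16, where the median log2 difference of expressed genes was 0.16, and its difference with chromosome medians removed was 0.78. The related St6gal2 averaged 5.44 ± 0.07 in the Myolinc line and 5.52 ± 0.07 in empty vector cells, and its groups overlapped.

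The 6 St8sia genes add sialic acid to sialic acid. All 6 lay below the median level in both groups. St8sia2, which makes polysialic acid on the neural cell adhesion molecule, read 6.98 and 6.99 in the Myolinc line and 6.54 and 6.35 in empty vector cells. It rose by 0.54 (SE 0.09) without overlap. St8sia4, the other main polysialyltransferase, averaged 5.93 ± 0.13 in the Myolinc line and 5.79 ± 0.02 in empty vector cells and did not pass. The carrier gene Ncam1 read 11.84 and 11.88 in the Myolinc line, against 11.70 and 11.77 in empty vector cells, a log2 difference of 0.12 that did not pass in limma (adjusted p = 0.320). St8sia1, which turns GM3 into GD3, had a difference of 0.27 (SE 0.14), and St8sia3, St8sia5 and St8sia6 lay between 0.00 and 0.06.

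**Figure D2:**
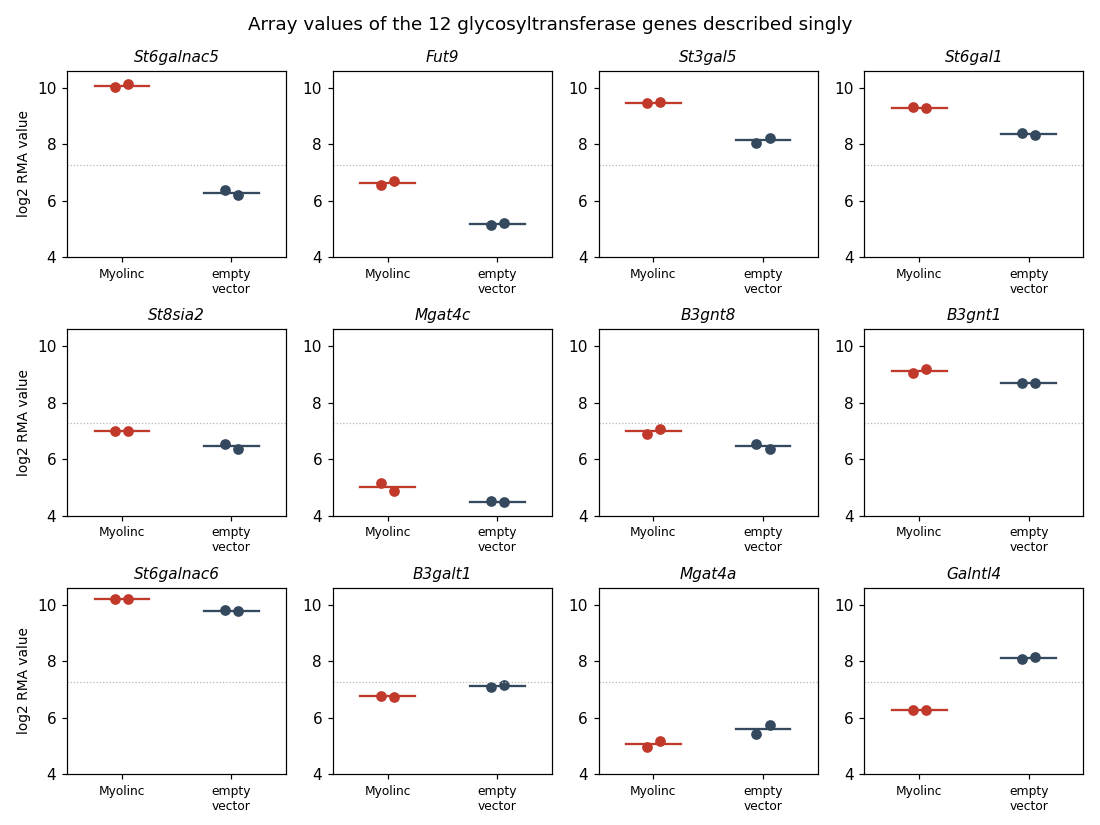
Log2 RMA value on each array for the 12 genes described singly, the Myolinc line on the left and empty vector on the right of each panel, with a bar at the group mean and a dotted line at the median level over probe sets, 7.27. Every panel shows groups that do not overlap, and Fut9, St8sia2, Mgat4c, B3gnt8, B3galt1 and Mgat4a lie below the dotted line on all arrays.

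Fucosyltransferases place fucose at the ends or the core of chains. Fut9 makes the Lewis x structure, also called SSEA-1, which is known from stem cells and brain. It read 6.56 and 6.69 in the Myolinc line, against 5.14 and 5.21 in empty vector cells. It rose by 1.45 on the log2 scale (SE 0.08), with all 4 arrays below the median level. Both group means lay in the range of the endothelial markers, 4.58 to 7.11 in the Myolinc line and 4.52 to 7.13 in empty vector cells, and no fold is given here either. Fut4, which can make the same structure, averaged 5.78 ± 0.14 in the Myolinc line and 5.88 ± 0.18 in empty vector cells, and Fut7, which acts on sialylated chains to make sialyl Lewis x, 5.97 ± 0.05 and 6.22 ± 0.10. Neither passed. Fut8, which fucosylates the N-glycan core, had a log2 difference of 0.12 (SE 0.07). Fut10, a less characterised member, had 0.37 (SE 0.08), and the other 3 lay between -0.01 and 0.12.

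The Galnt genes encode the enzymes that start mucin-type O-glycans by placing N-acetylgalactosamine on serine or threonine, and they were the largest class, with 17 members. Galntl4, which RefSeq lists as Galnt18, was the 1 member of the class that passed. It read 6.28 and 6.26 in the Myolinc line, against 8.09 and 8.15 in empty vector cells. Both Myolinc arrays lay below the median level and both empty vector arrays above it, and it fell by 1.85 on the log2 scale (SE 0.06). Its level in the Myolinc line lay in the range of the endothelial markers there. The 16 other members had differences from -0.44 to 0.17, with 8 above 0 and 8 below. Galnt1 and Galnt2, broadly expressed members that start O-glycans in many tissues, averaged 9.58 ± 0.10 and 10.14 ± 0.02 in the Myolinc line and 9.45 ± 0.05 and 10.21 ± 0.07 in empty vector cells. Galnt7, which prefers peptides that already carry a sugar, read 8.62 and 8.71 in the Myolinc line and 8.98 and 9.22 in empty vector cells, with no overlap, and did not pass.

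Among galactosyltransferases and enzymes that extend lactosamine chains, 1 of 6 B3gal, 1 of 8 B3gnt and 0 of 10 B4gal genes passed. Of all genes 9.26% were called in either direction, and nothing is read from these counts. Of the 6 B3gal genes B3galt1, which adds galactose to N-acetylglucosamine to form type 1 chains, read 6.78 and 6.73 in the Myolinc line, against 7.07 and 7.14 in empty vector cells. It fell by 0.35 (SE 0.06), just inside the threshold. It lies on chromosome 2, where the median difference of expressed genes was -0.14, and with chromosome medians removed its difference was -0.21 and it no longer passed. Of the 8 B3gnt genes B3gnt1 read 9.06 and 9.18 in the Myolinc line and 8.71 and 8.68 in empty vector cells, and rose by 0.42 (SE 0.07). RefSeq gives that symbol as an older name of both B3gnt2 and B4gat1. B3gnt2 has a row of its own, which leaves B4gat1 as the likely gene, and the name in the table is kept here. B3gnt8, which extends lactosamine on branched N-glycans, read 6.90 and 7.07 in the Myolinc line, against 6.53 and 6.37 in empty vector cells. Its log2 difference of 0.53 (SE 0.10) stood just outside the threshold. B3gnt6, the core 3 synthase of mucin chains, averaged 5.71 ± 0.03 in the Myolinc line and 6.05 ± 0.06 in empty vector cells and did not pass.

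None of the 10 B4gal genes passed in limma, and their differences ran from -0.32 to 0.25. At an unadjusted p under 0.05 stood 3 of the 10, beside 5386 of all 20193 genes. That share stands beside each later count of this kind for a class, list or set of neighbours. B4galt1, which makes most of the lactosamine on N-glycans, averaged 10.94 ± 0.02 in the Myolinc line and 10.97 ± 0.02 in empty vector cells. B4galt5 and B4galt6, which make lactosylceramide, the substrate of St3gal5, had differences of 0.22 (SE 0.06) and -0.05 (SE 0.07). B4galnt1, which turns GM3 into GM2, averaged 9.34 ± 0.13 in the Myolinc line and 9.35 ± 0.09 in empty vector cells. B3galt4, which turns GM2 into GM1, averaged 7.07 ± 0.02 in the Myolinc line and 7.08 ± 0.02 in empty vector cells.

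No branching enzyme passed in limma. At an unadjusted p under 0.05 stood 2 of 5 Gcnt and 2 of 8 Mgat genes, beside 5386 of all 20193 genes. The 5 Gcnt genes, which branch O-glycans and lactosamine chains, had differences from -0.26 to 0.29, the highest being that of Gcnt2, which makes the branched I antigen. The 8 Mgat genes, which add the branches of N-glycans, had differences from -0.52 to 0.54. Mgat4a, which adds a branch to the first arm of the core, read 4.97 and 5.16 in the Myolinc line and 5.42 and 5.75 in empty vector cells. Mgat4c, a putative relative, read 5.17 and 4.88 in the Myolinc line and 4.51 and 4.47 in empty vector cells. Both did not overlap between groups, and both lay far below the median level on every array. Mgat1, which starts complex N-glycans, had -0.19 (SE 0.09), Mgat2, which starts their second arm, -0.02 (SE 0.06), and Mgat5, whose branch carries long lactosamine chains, -0.15 (SE 0.06).

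Of the 80 members 42 had a mean below the median level in both groups, beside 9430 of all 20193 genes.

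The route to the gangliosides crosses several of these classes and was followed gene by gene. Ugcg, outside the named classes, makes glucosylceramide, the start of the route, and read 12.63 and 12.79 in the Myolinc line and 12.54 and 12.51 in empty vector cells (log2 difference 0.18, adjusted p = 0.263 in limma). A4galt, which takes lactosylceramide to the globosides and so competes with St3gal5, read 9.02 and 8.96 in the Myolinc line, against 8.19 and 8.35 in empty vector cells. It rose by 0.72 (SE 0.08, adjusted p = 0.0223 in limma). Of the enzymes that act on GM3 and later gangliosides, St6galnac5 and St6galnac6 rose, as given above, and B4galnt1, B3galt4, St8sia1, St3gal2 and St6galnac3 did not pass. Of the breakdown genes, Gm2a, the activator protein needed to degrade GM2, read 8.78 and 8.76 in the Myolinc line and 9.35 and 9.24 in empty vector cells, and fell by 0.52 (SE 0.07, adjusted p = 0.0279 in limma). Galc, which removes galactose from galactosylceramide, read 9.68 and 9.66 in the Myolinc line and 9.13 in each empty vector array, and rose by 0.54 (SE 0.06, adjusted p = 0.0213). Glb1, the lysosomal galactosidase that degrades GM1, had a difference of -0.52 (SE 0.14) and did not pass (adjusted p = 0.105 in limma). The sialidases Neu1 and Neu3 had differences of 0.01 (SE 0.07) and 0.05 (SE 0.09).

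**Figure D3:**
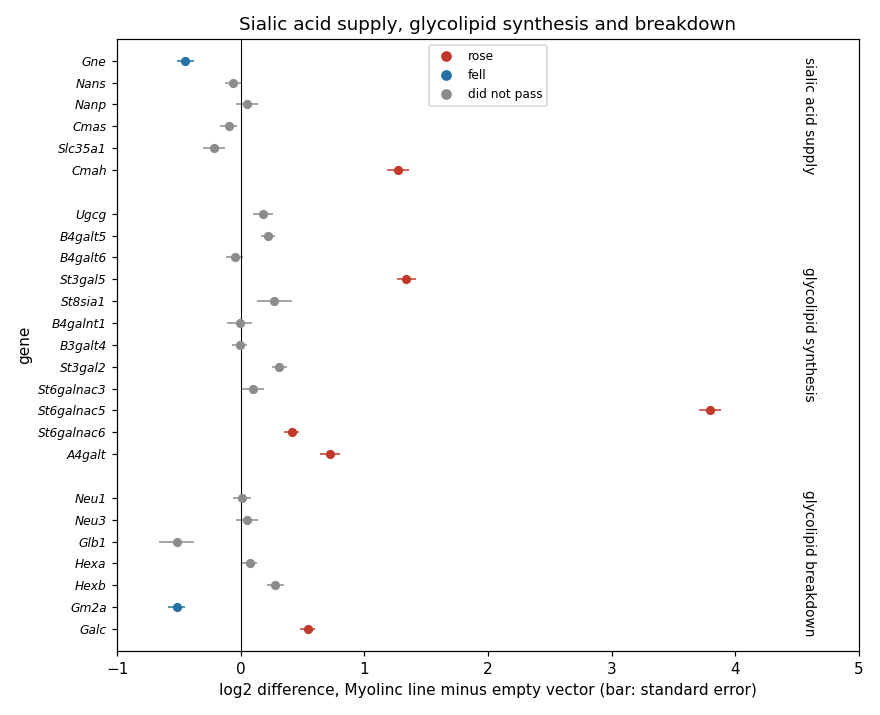
Log2 difference, Myolinc line minus empty vector, with its standard error, for 25 genes of sialic acid supply, glycolipid synthesis and glycolipid breakdown. Cmah, St3gal5, St6galnac5, St6galnac6, A4galt and Galc rose, Gne and Gm2a fell, and the rest did not pass.

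The other genes of glycan metabolism were taken from 8 lists with 211 entries, of which 190 were measured. Of the 190, 11 rose (5.79%, beside 4.61% of all genes) and 10 fell (5.26%, beside 4.65%), and 169 did not pass. The split was 17 and 10 with a further quantile normalization, 6 and 10 with arrays centred on their medians, and 11 and 6 with chromosome medians removed. The share of all genes called in these alternative settings is not given here. Leaving out either empty vector array ended all of these calls in limma, in fits with 1 array left in that group. The counts were 4 rising and 1 falling without Myolinc replicate 1, and 5 and 6 without Myolinc replicate 2. The median log2 difference of the 190 was 0.03. The shares of all genes that rose and fell, 4.61% and 4.65%, stand beside each list count below.

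Of 29 sugar nucleotide genes 2 rose and 3 fell (list median 0.05). Cmah converts the common sialic acid to its glycolyl form in the mouse. It read 11.03 and 11.18 in the Myolinc line, against 9.76 and 9.90 in empty vector cells, and rose by 1.27 (SE 0.09, adjusted p = 0.0118 in limma). Gne, the rate-limiting enzyme of sialic acid synthesis, read 9.78 and 9.69 in the Myolinc line, against 10.17 and 10.21 in empty vector cells, and fell by 0.45 (SE 0.07, adjusted p = 0.0328). The later enzymes of sialic acid synthesis Nans (-0.06, SE 0.07), Nanp (0.05, SE 0.09) and Cmas (-0.10, SE 0.07) did not pass. Gmppa, a regulator of GDP-mannose synthesis, rose by 0.35 (SE 0.06), while Fpgt, of fucose salvage, fell by 0.70 (SE 0.11) and Uap1l1, a relative of the UDP-N-acetylglucosamine synthase, by 0.44 (SE 0.07). Of 15 genes of the Slc35 family, listed as Golgi sugar nucleotide transporters, 0 passed in limma (list median -0.12). At an unadjusted p under 0.05 stood 5 of them, beside 5386 of all 20193 genes. The CMP-sialic acid transporter Slc35a1 averaged 8.79 in the Myolinc line and 9.01 in empty vector cells.

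Of 24 genes for glycosidases and proteins that assist them 2 rose and 2 fell (list median 0.07). Besides Galc and Gm2a, Fuca2, a secreted fucosidase, read 9.67 and 9.99 in the Myolinc line, against 8.28 in each empty vector array, and rose by 1.55 (SE 0.12, adjusted p = 0.0144 in limma). The lysosomal mannosidase Man2b1 fell by 0.48 (SE 0.06, adjusted p = 0.0272). Of 20 glycosyltransferases whose names lie outside the rule 3 rose and 1 fell (list median 0.10). Gxylt2, which extends O-glucose on Notch, rose by 0.51 (SE 0.08) and Pofut2, which fucosylates thrombospondin repeats, by 0.47 (SE 0.06). Ggta1, which makes the alpha-galactosyl epitope of non-primate mammals and competes with sialyltransferases for terminal galactose, read 9.05 and 8.97 in the Myolinc line, against 9.46 and 9.54 in empty vector cells. It fell by 0.49 (SE 0.07, adjusted p = 0.0312). C1galt1, the core 1 synthase of O-glycans, did not pass (0.12, SE 0.06).

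Of 29 genes of N-glycan assembly and trimming 2 rose and 1 fell (list median -0.04). The Golgi mannosidase Man2a2, which trims N-glycans before they are branched, read 9.28 and 9.38 in the Myolinc line, against 8.53 in each empty vector array, and rose by 0.80 (SE 0.06, adjusted p = 0.0144 in limma). Alg3, a mannosyltransferase of the lipid-linked precursor, rose by 0.32 (SE 0.06) and Man1a2, an earlier Golgi mannosidase, fell by 0.41 (SE 0.06). Of 12 genes for the O-mannose glycans of dystroglycan 0 passed in limma (list median -0.05), with 1 at an unadjusted p under 0.05. The list did not hold B4gat1, the likely gene of the B3gnt1 row that rose. Dag1, dystroglycan itself, read 10.61 and 10.62 in the Myolinc line and 10.57 and 10.56 in empty vector cells, and Large, which builds its laminin-binding chain, had a difference of -0.11 (SE 0.07). Of 40 proteoglycan chain genes 2 rose and 2 fell (list median 0.05). Has2, the hyaluronan synthase, read 9.29 and 9.46 in the Myolinc line, against 11.00 on both empty vector arrays, and fell by 1.63 (SE 0.08, adjusted p = 0.00733). The heparan sulfate sulfotransferase Hs3st3a1 fell by 0.55 (SE 0.06), and the heparan sulfate polymerase Ext1 and the xylose kinase Fam20b rose by 0.34 (SE 0.06) and 0.39 (SE 0.07).

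Of 21 genes for lectins and carriers that read sialic acid or galactose 1 fell and 0 rose (list median 0.02). Lgals9, galectin-9, read 10.04 and 9.93 in the Myolinc line and 10.51 and 10.50 in empty vector cells, and fell by 0.51 (SE 0.07, adjusted p = 0.0281 in limma). Lgals1, a galectin abundant in myoblasts, averaged 14.11 in the Myolinc line and 14.04 in empty vector cells and did not pass.

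The genes beside the 5 most changed members were read next. RefSeq order gave 30 measured neighbours, 3 on either side of each. Of these 1 rose and 2 fell, beside 9.26% of all genes called in either direction. Pigk, a subunit of the enzyme that attaches lipid anchors to proteins and the neighbour of St6galnac5 on one side, averaged 10.50 in the Myolinc line and 9.83 in empty vector cells. It rose by 0.67 (SE 0.07, adjusted p = 0.0211 in limma). Around St3gal5 the neighbours lay between -0.38 and -0.05, and Polr1a, the large subunit of RNA polymerase I, fell by 0.38 (SE 0.06, adjusted p = 0.0364). Around St6gal1 they lay between -0.61 and 0.44, and Masp1, a protease of the lectin complement pathway, fell by 0.61 (SE 0.09, adjusted p = 0.0321). Around Galntl4 and Fut9 none of the 6 neighbours each passed in limma. Around each of these genes 1 neighbour had an unadjusted p under 0.05, and the log2 differences had ranges of -0.20 to 0.10 and -0.58 to 0.15.

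**Figure D4:**
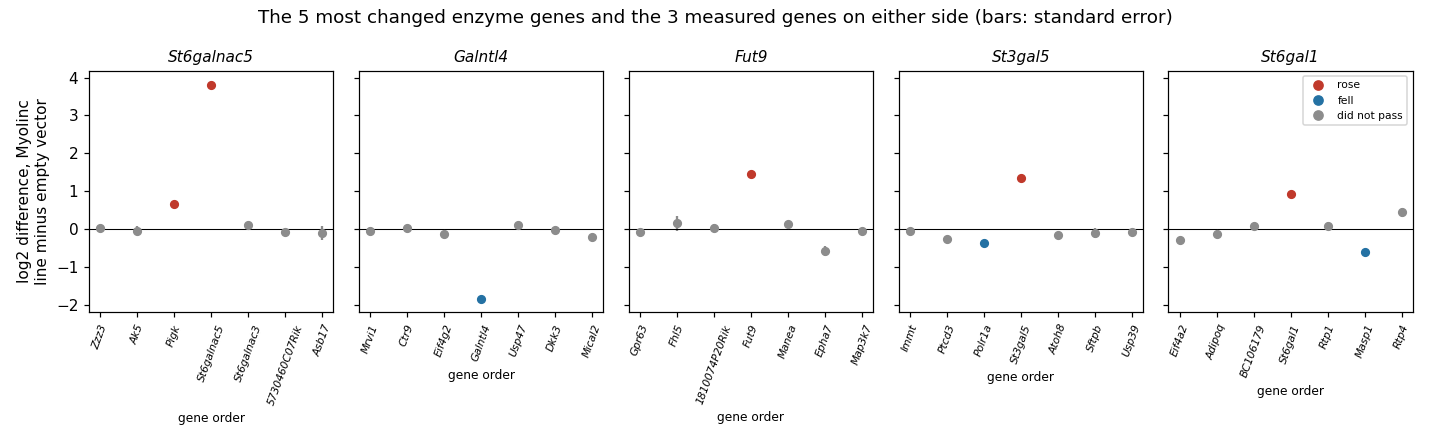
Log2 difference, Myolinc line minus empty vector, of the 5 most changed enzyme genes and of the 3 measured genes on either side in RefSeq order, with standard errors as bars. The 30 neighbours lie between -0.61 and 0.67, while the 5 enzyme genes reach from -1.85 to 3.80.

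Markers of cell types were read beside these results. Of 12 myoblast markers 4 rose, beside 4.61% of all genes, and 0 fell, beside 4.65%. The same shares stand beside the later marker counts. Itga7, a laminin receptor of muscle, rose by 1.23, Cdh15, muscle cadherin, by 0.49, Myf5 by 0.38 and Des, desmin, by 0.33. The other 8 did not pass, with 6 above 0 and 2 below, Pax7 (-0.21) and Pax3 (-0.13). Myod1 was at 11.59 and 11.55 in the Myolinc line and 11.54 and 11.47 in empty vector cells. The summed unlogged level of the list was 27982 to 28031 in the Myolinc line and 22246 to 22380 in empty vector cells. Of 10 neuronal and glial markers 2 rose and 1 fell, and their sum was 4646 to 4704 in the Myolinc line and 2290 to 2328 in empty vector cells. Without Nefl the sum of the other 9 was 1531 to 1612 in the Myolinc line and 1972 to 2004 in empty vector cells. Nefl (3.27) and Gap43 (0.66) rose and Stmn2 (-2.65) fell, while the synaptic genes Snap25 and Syt1 lay below the median level on all arrays. Of 8 adipocyte markers Lpl rose (1.57), of 8 macrophage and leukocyte markers Cd68 fell (-0.46), of 8 epithelial markers Krt14 fell (-2.41), and of 8 endothelial markers 0 passed in limma, with 0 at an unadjusted p under 0.05. The summed level was 2226 to 2292 in the Myolinc line and 1885 to 1990 in empty vector cells for adipocytes, 754 to 821 and 845 to 867 for macrophages and leukocytes, 859 to 873 and 1268 to 1342 for epithelium, and 652 to 672 and 647 to 678 for endothelium. The epithelial sum includes Krt14, and the 7 other epithelial markers had log2 differences from -0.22 to 0.05. The part of these marker shifts in the enzyme values was not tested.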

How the data were processed

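RNA from C2C12 cells was hybridised to 4 Affymetrix arrays, 2 per group. The deposited log2 values come from RMA run by the authors, per the submitters' processing notes, where RMA and limma stand without versions. Build and probe annotation: not given in the sources used here. Per the file headers, the authors deposited a p-value and a log2 fold change per gene too. The fold changes of the members differed by at most 0.0018 from those computed here, and the deposited p-value was not used.

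Of 35556 rows, 6612 rows at the low end of the numbering, none with a symbol, were taken as controls and left out, and the other 28944 entered the test whatever their level. Each of 20193 gene symbols occurs once. The groups were compared with limma 3.58.1 (R 4.3.3, lmFit and eBayes, default settings), Myolinc line minus empty vector. P-values are two-sided, adjusted over the 20193 genes by Benjamini-Hochberg, and called under 0.05. There were 2 residual and 2.18 prior degrees of freedom, and SE is the moderated one. An exact permutation test of 2 arrays against 2 cannot go below 0.333. The labels name biological replicates but no separate transfections, so p-values rest on array-to-array spread alone, possibly technical. Precision is limited by the number of arrays. The fit was also run on simulated data with independent noise on each array, which says nothing about spread between separately selected lines.

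The members, the lists, the settings and the naming rule were chosen with earlier results of these data known. Named with values by array were members called or changed by at least 0.5 on the log2 scale; from the lists, called genes by smallest p. St3gal2, Galnt7, Ugcg, Dag1, Myod1, Ncam1, Lgals1 and other genes that did not pass were named as examples after their values were seen. Of the 80 symbols 75 matched RefSeq (GRCm38.p6) directly, 4 through a synonym and 1 (B3gnt1) to no single gene. For 2 members, Fut9 and Galntl4, the value of empty vector replicate 2 was stored with 3 digits. Figures were drawn with matplotlib 3.10.9.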

Additional observations from a re-analysis of the deposited data

How the results depend on the processing

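The log2 differences of the 12 members described singly kept their sign in the alternatives that change the values or the arrays (quantile normalization, centring, removal of chromosome medians, leaving out an array), from 3.71 to 3.90 for St6galnac5, 1.38 to 1.52 for Fut9, 1.26 to 1.42 for St3gal5, 0.78 to 0.96 for St6gal1 and -1.90 to -1.83 for Galntl4. With lower-level probe sets left out 7 of the 12 were not tested. The calls depended more on the fit. With an ordinary linear model 4577 of all 20193 genes had an unadjusted p under 0.05. The share of all genes called in each setting is not given here, so the counts below cannot be set beside it. The number of other glycan pathway genes still tested with lower-level probe sets left out is not given either. Of members that rose and fell, against 7 and 2, the counts were 4 and 1 with a replicate block, 15 and 3 with limma's trended, robust variance, 12 and 2 with lower-level probe sets left out (37 members then tested), 4 and 1 with the control range kept in the fit, 9 and 1 with a further quantile normalization, 6 and 1 with arrays centred on their medians, 6 and 1 with adjustment over all probe sets, 9 and 1 with chromosome medians removed, 12 and 5 at an adjusted p under 0.1, 3 and 1 at 0.01, and 0 and 0 with an ordinary linear model, which had 19 members at an unadjusted p under 0.05. Leaving out a single array gave 0 to 5 and 0 to 1. The replicate numbers are shared between groups in the labels but name no common batch, and the deviations of equal numbers correlated at 0.215 over probe sets. With the block, St6galnac5, Fut9, St3gal5, St6gal1 and Galntl4 kept their calls. Of the other glycan pathway genes, against 11 and 10, the counts were 3 and 1 with a replicate block, 35 and 25 with the trended and robust model, 36 and 26 with lower-level probe sets left out, 17 and 10 with quantile normalization, 6 and 10 with centred arrays, 20 and 15 with named genes alone in the fit, 6 and 2 with the control range, 7 and 10 with adjustment over all probe sets, 11 and 6 with chromosome medians removed, 26 and 19 at 0.1, 0 and 1 at 0.01, and 0 and 0 with the ordinary linear model, where 62 had an unadjusted p under 0.05. Leaving out a single array gave 0 to 5 and 0 to 6. The removal of chromosome medians and the recovery of the values stored with 3 digits, which changed no count, were chosen after seeing the data. With the latter and with named genes alone in the fit, members stood at 7 and 2 and at 10 and 3. The cause of these shifts was not tested, and some of the settings hold fewer genes or arrays. Members below the median level are read with least certainty.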
